A study of Rattus norvegicus with 6 samples.

Results

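Hif1a, Vegfa and Kdr are 3 genes of the response to low oxygen and of blood vessel growth, and their transcripts were measured in the esophagus of 6 rats. They were taken by their Ensembl identifiers, ENSRNOG00000008292 for Hif1a, ENSRNOG00000019598 for Vegfa and ENSRNOG00000046829 for Kdr. All 3 were found among the 32623 genes of the count table, and all 3 were among the 14481 genes abundant enough to be tested. The animals were wild-type males of the outbred Sprague-Dawley strain, aged 8 to 10 weeks and weighing 250 ± 20 g per the labels. The 3 control animals were untreated. In the 3 injured animals a 3D-printed device was passed 9 to 10 cm down through the mouth and moved back and forth in 8 to 10 friction cycles of 3 to 5 s each. Full-thickness esophagus was taken on day 28 from both groups, and each animal gave 1 polyadenylated RNA library. No control animals with the device inserted but no friction were part of the comparison, so insertion and friction cannot be told apart. A single time was sampled.

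Cells sense oxygen through hypoxia-inducible factors. Hif1a encodes the alpha subunit of HIF-1, a transcription factor whose protein is hydroxylated and degraded when oxygen is plentiful and accumulates when it is scarce, so the amount of Hif1a transcript does not report the activity of the factor. Vegfa encodes vascular endothelial growth factor A, a secreted ligand and a classical HIF target that drives the growth and permeability of blood vessels. Kdr encodes VEGF receptor 2, the main signalling receptor for that ligand, made mostly by endothelial cells. Vessel growth accompanies the granulation tissue of healing wounds and usually recedes as a scar matures.

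Windows of 300 bases at the annotated starts of the genes were searched for the short core that HIF complexes recognise. The windows came from RefSeq on the GRCr8 build, ran from 250 bases before to 50 bases after an annotated start, and were matched by symbol for 3 of 3 genes. That build is not the one the counts were made on. The Hif1a window and the second Vegfa window lie inside the span that RefSeq gives the gene, so they may be starts internal to longer transcripts. The core was searched as ACGTG and as GCGTG on both strands. Either form occurred in 41.6% of all 33469 windows of 300 bases, ACGTG in 19.3% and GCGTG in 29.7%, so a match is common. Hif1a (chr6:98359648-98359947, plus strand) held ACGTG at 2 places, one of which, CACGTG, reads the same on both strands and so counts as a match on each. Kdr (chr14:32571813-32572112, plus strand) held GCGTG at 2 places. Neither form was found in the 2 windows of Vegfa (chr9:22452604-22452903 and chr9:22460028-22460327, plus strand). Bases outside the windows were not searched, so this does not show that Vegfa lacks the core. The first Vegfa window held 3 copies of the GC box GGGCGG, which Sp1-type factors bind. That box, also searched on both strands, was in 33.1% of all windows, with 2 copies in Hif1a and 1 in Kdr. The shares count windows with at least 1 match. Windows with more copies or with a like GC content were not counted apart. Each stretch below carries the letters of 1 match in capitals, and letters of a neighbouring match stay in lower case. In the first Hif1a stretch this holds for the leading c of CACGTG, matched on the minus strand. The Vegfa stretch also holds the GGGCGG copy 73 bases before the start in lower case.
Hif1a, 228 bases before the start: acacagacgagcACGTGagctgggcagct
Hif1a, 164 bases before the start: tggctgagagcaACGTGggctggggtggg
Kdr, 145 bases before the start: gtgggggagtggGCGTGggaaaccgggaa
Kdr, 103 bases before the start: atccagcgagggGCGTGgccggacgcagg
Vegfa, 84 bases before the start: gcctcgcccccgGGGCGGgcctggggcggg
These letters describe the windows, and the RNA counts do not measure binding to them.

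On day 28 none of the 3 transcripts was called different between injured and control esophagus. With 3 animals per group this does not show that the transcripts stayed the same. Hif1a was 1.32-fold of the control level and Kdr 1.22-fold, and Vegfa was 0.908-fold. Of the 3 genes, 0 were called at an adjusted p under 0.05 (edgeR quasi-likelihood test with Benjamini-Hochberg adjustment over all genes), where 1.35% of all tested genes were called. At an unadjusted p under 0.05 the count was also 0 of 3, against 21.4% of all tested genes. The groups overlapped in all 3 genes, while 29.2% of all tested genes had groups that did not overlap. DESeq2 called 6.82% of 20471 genes, 4235 of which had no adjusted p and could not be called, and it likewise called 0 of 3. So did limma-voom, at 0.856% of genes, limma-voom with sample weights, at 5.79%, and edgeR with the replicate number as a block, at 3.77%. The plot of CPM (counts scaled to library size) in each animal shows this overlap. In whole tissue, fewer cells of a type and less RNA per cell cannot be told apart.

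**Figure D1:**
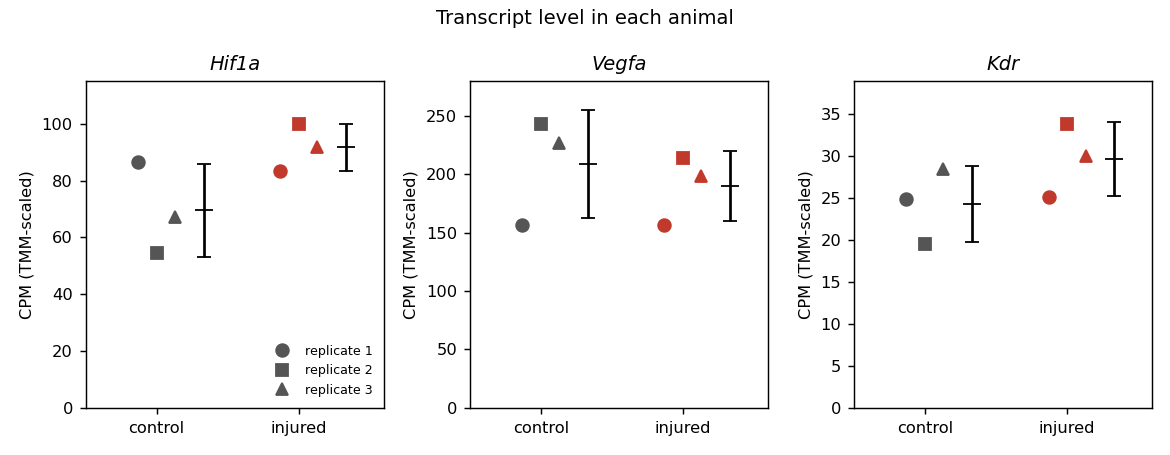
CPM (counts scaled to library size with TMM, the trimmed mean of M-values) of Hif1a, Vegfa and Kdr in each of 3 control and 3 injured animals, with marker shapes for replicate numbers and black bars for the mean ± SD. In every panel the lowest injured animal lies below the highest control animal, and replicate 1 is the lowest for Vegfa in both groups.

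Hif1a, the oxygen-regulated subunit, was represented by 1445, 976 and 932 counts in control replicates 1, 2 and 3 and by 1564, 1647 and 1567 counts in the injured replicates. Scaled to library size, the controls stood at 86.7, 54.5 and 67.2 CPM and the injured animals at 83.3, 100.03 and 91.8 CPM. Control replicate 1 stood inside the injured range, while control replicates 2 and 3 lay below every injured animal. The control mean was 69.5 ± 16.2 CPM and the injured mean 91.7 ± 8.35 CPM (SD, n = 3 each). Injured and control differed by a log2 fold change of 0.40 (SE 0.18; edgeR, adjusted p = 0.25), and its 95% interval of -0.02 to 0.82 corresponds to 0.983-fold to 1.77-fold. An increase beyond 1.77-fold therefore lies outside the interval, and no change lies just inside it. The size of the Hif1a difference exceeded that of 66.4% of all tested genes.

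The Hif1a estimate turned on which control was included. Without control replicate 1, the high one, the log2 fold change was 0.59, with an unadjusted p of 0.0050 and an adjusted p of 0.081 in edgeR. Without control replicate 2, the low one, it was 0.25 (edgeR, adjusted p = 0.40). Leaving out control replicate 3 gave 0.39, and leaving out 1 injured animal gave 0.33 to 0.46. Every one of these fits placed Hif1a higher in the injured group, and none called it.

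Vegfa, the ligand, had 2607, 4355 and 3148 counts in the 3 controls, by replicate number, and 2934, 3528 and 3386 in the injured animals. Control levels were 156, 243 and 227 CPM, and injured levels were 156, 214 and 198 CPM. Replicate 1 was the lowest and replicate 2 the highest in both groups, and control replicate 1 and injured replicate 1 were nearly equal. The mean was 208.9 ± 46.2 CPM without and 189.6 ± 29.9 CPM with injury (SD, n = 3 each), a log2 fold change of -0.14 (SE 0.20; edgeR, adjusted p = 0.72). The 95% interval, -0.61 to 0.33, runs from 0.655-fold to 1.26-fold, so a rise of the ligand by more than 1.26-fold lies outside it. The difference was larger than that of 29.3% of all tested genes. Without control replicate 1 it was -0.31 (edgeR, adjusted p = 0.24), and it was -0.02 without control replicate 2 and also without injured replicate 1.

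Kdr, the receptor, had fewer counts, 415, 349 and 395 in the controls by replicate number and 471, 557 and 511 in the injured animals. These came to 24.9, 19.5 and 28.5 CPM for the controls and 25.1, 33.8 and 29.9 CPM after injury. Control replicate 2 was the lowest of the 6 and injured replicate 2 the highest, and the other 4 animals ranged from 24.9 to 29.9 CPM. Kdr averaged 24.3 ± 4.53 CPM in the control group and 29.6 ± 4.38 CPM in the injured group (SD, n = 3 each). The log2 fold change was 0.29 (SE 0.18; edgeR, adjusted p = 0.40). Its 95% interval of -0.15 to 0.72 spans 0.903-fold to 1.65-fold. The difference was larger than that of 53.8% of all tested genes. Both animals with the number 2 bore on it, since the log2 fold change was 0.15 without control replicate 2 and 0.18 without injured replicate 2 (edgeR, adjusted p = 0.66 and 0.69). Without control replicate 3 it was 0.43 (edgeR, adjusted p = 0.30).

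**Figure D2:**
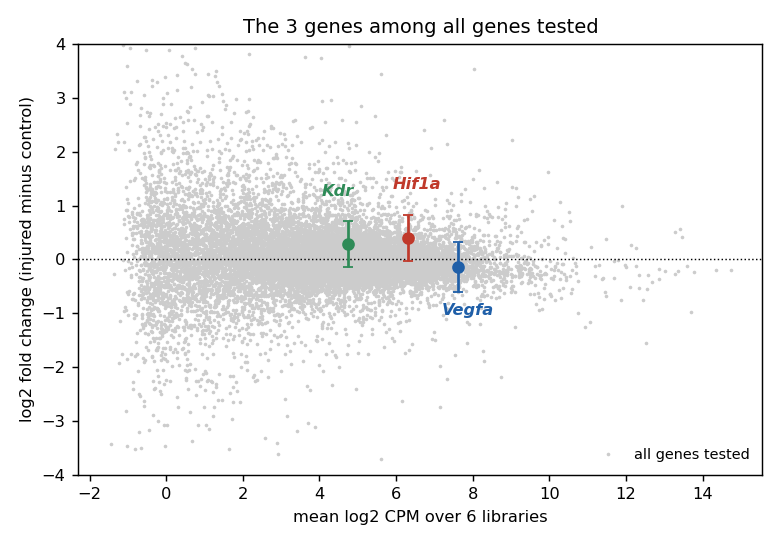
Log2 fold change (injured minus control, edgeR) against mean log2 CPM over the 6 libraries for all 14481 genes tested (gray), with Hif1a, Vegfa and Kdr in color and bars for their 95% intervals. The axis is limited to a log2 fold change of 4 in size, which leaves out 63 genes, and the intervals of all 3 genes include 0.

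Counting error was small beside this spread. From the number of reads alone, the coefficient of variation of a single library would be 2.46% to 3.28% for Hif1a, 1.52% to 1.96% for Vegfa and 4.24% to 5.35% for Kdr. The observed coefficients of variation were 23.3% in controls and 9.11% in injured animals for Hif1a, 22.1% and 15.8% for Vegfa, and 18.6% and 14.8% for Kdr. The animals of a group thus differed by more than the reads would give. Each gene varied more among the controls, as did 65.1% of all tested genes, and the difference in spread was not tested. Hif1a had the most unequal spread of the 3, with an SD of log2 CPM of 0.33 among controls against 0.13 after injury. Over all tested genes the median SD was 0.25 and 0.19. Total counts were 14181903 to 18376578 per library. Control replicates 1 and 2 differed most among pairs within a group, at a chi-square of 142.9 per degree of freedom over genes, against 16.8 to 63.3 in the other 5 pairs.

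Count ratios between the genes within a library do not depend on how libraries are scaled, and they show how ligand, receptor and factor moved against each other. They are ratios of counts, not corrected for gene length, and serve only to compare animals. The injured animals lay close together in the ratio of ligand to receptor, with 6.23, 6.33 and 6.63 Vegfa counts per Kdr count in injured replicates 1 to 3. The controls had 6.28, 12.5 and 7.97. Control replicate 1 therefore lay within the injured range, and control replicates 2 and 3 had more ligand transcript per receptor transcript. On the log2 scale the Kdr to Vegfa ratio was -2.67 ± 0.05 in injured animals and -3.09 ± 0.50 in controls (SD, n = 3 each). The spread among injured animals was within the counting error of a single ratio, at most 0.07. A spread that small over 3 animals therefore cannot show a fixed relation between the 2 transcripts. Among 13658 genes with at least 1 CPM on average, 1.98% kept a steadier ratio to Kdr than Vegfa did in injured animals. In controls that share was 70.3%. The other 2 ratios were also steadier after injury. For Kdr to Hif1a the share was 6.17% in injured animals against 25.2% in controls, and for Vegfa to Hif1a, taken among ratios to Vegfa, it was 8.40% against 79.6%. Ratios to Kdr were steadier in general, with a median SD over genes of 0.27 in injured animals and 0.38 in controls, and these differences in spread were not tested. The shares were not matched for abundance, and a ratio to a gene with few counts carries more counting error.

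The groups overlapped in this ratio, and the difference of 0.42 on the log2 scale gave p = 0.30 (two-sided exact permutation test, adjusted p = 0.50 over 3 ratios). With 3 animals against 3 the smallest p possible is 0.10, so no ratio could pass 0.05. Taken as pairs by replicate number, the injured animal had the higher ratio in 3 of 3 pairs, though the paired libraries come from different animals. The exact sign-flip permutation p was 0.25, the smallest that 3 pairs can give. For replicate 1 the log2 ratios were -2.633 (injured) and -2.645 (control), closer than the counting error of either (0.072 and 0.076). The difference between the groups was 0.64 without control replicate 1 and 0.15 without control replicate 2.

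Vegfa against Hif1a, the target against the factor, also placed the injured animals close together and the controls apart. The controls had 1.80, 4.46 and 3.38 Vegfa counts per Hif1a count, by replicate number, and the injured animals 1.88, 2.14 and 2.16. Control replicates 2 and 3 lay above every injured animal and control replicate 1 below all of them. The log2 ratio was 1.59 ± 0.67 in controls and 1.04 ± 0.11 in injured animals (SD, n = 3 each). The difference of -0.55 did not pass (two-sided exact permutation p = 0.40, adjusted p = 0.50), and it was -0.92 without control replicate 1 and -0.26 without control replicate 2.

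Kdr against Hif1a changed least between the groups. Its log2 ratio was -1.50 ± 0.28 in controls and -1.63 ± 0.08 in injured animals (SD, n = 3 each), a difference of -0.13 (two-sided exact permutation p = 0.50, adjusted p = 0.50). Without control replicate 3, which had the highest of the 6 ratios, the difference was 0.0031. The plot of the 3 ratios shows the injured animals close together in each panel and the controls spread around or beyond them.

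**Figure D3:**
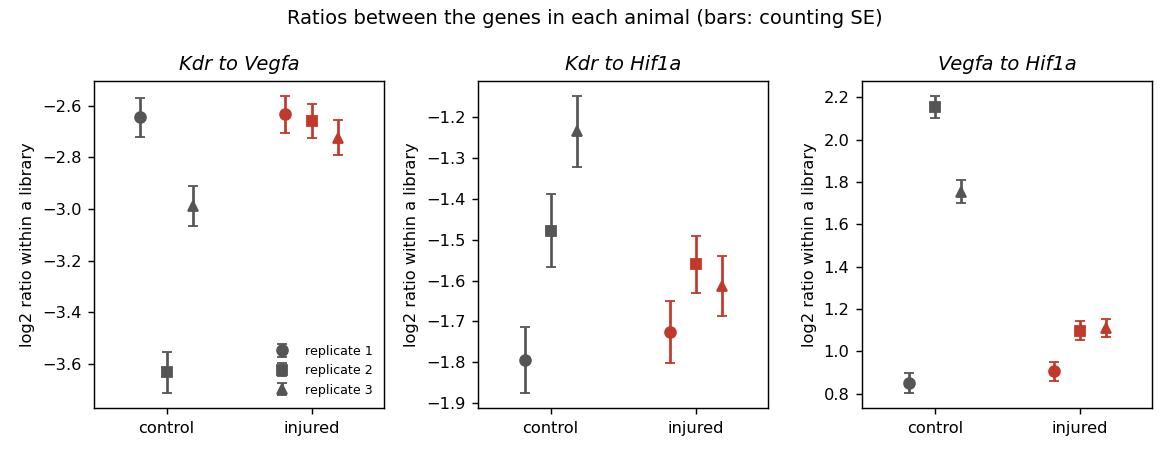
Log2 ratios of Kdr to Vegfa, Kdr to Hif1a and Vegfa to Hif1a within each library (log2 CPM with a prior count of 2), with marker shapes for replicate numbers and bars for the counting standard error. The injured animals span -2.72 to -2.63, -1.73 to -1.56 and 0.91 to 1.11, and the controls span -3.63 to -2.65, -1.79 to -1.24 and 0.85 to 2.16.

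Across the 6 libraries no pair of the genes passed 0.05 in the exact permutation test over 720 pairings, adjusted over the 3 pairs. Kdr and Hif1a had a Pearson r of 0.79 (exact permutation p = 0.057, adjusted p = 0.17) and a Spearman rho of 0.77 (exact permutation p = 0.10, adjusted p = 0.31). Without control replicate 2 and injured replicate 2, the libraries farthest from the median of Kdr, r was -0.13. Leaving out the extremes narrows the range and leaves 4 animals, so the relation cannot be separated from those libraries. Kdr and Vegfa had r = -0.03 (exact permutation p = 0.95, adjusted p = 0.95) and rho = -0.09 (exact permutation p = 0.92, adjusted p = 0.92). Without the same 2 libraries their r was 0.87, over 4 animals. Vegfa and Hif1a had r = -0.54 (exact permutation p = 0.25, adjusted p = 0.38) and rho = -0.43 (exact permutation p = 0.42, adjusted p = 0.63). Without control replicate 1 and injured replicate 1, r was -0.88. Each coefficient spans both groups, and 3 animals per group are too few for a coefficient within one.

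The genes whose log2 CPM ran most nearly parallel to each member over the 6 libraries were sought among the 13658 genes with at least 1 CPM on average. For Hif1a this was ENSRNOG00000009115 (r = 0.996), with 351 genes above an r of 0.9 and 308 below -0.9. It averaged 9.28 CPM in the control group and 45.6 CPM in the injured group, a wider swing than that of Hif1a, and was not called either (edgeR, adjusted p = 0.33). For Vegfa it was ENSRNOG00000043077 (r = 0.994), with 188 genes above 0.9 and 323 below -0.9. For Kdr it was ENSRNOG00000014183 (r = 0.997), with 148 genes above 0.9 and 134 below -0.9. The named genes have the highest of many coefficients over 6 libraries and were chosen for being so. How many unrelated genes would lie beyond 0.9 or -0.9 was not tested, so the counts do not show shared regulation. The gene closest to Hif1a stood at rank 7 when libraries were scaled by size alone and at rank 2 with upper quartile scaling, and the one closest to Vegfa at rank 2 when scaled by size alone.

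The plot of fold changes by setting compares the scalings, filters, tests and sets of animals. Hif1a and Kdr were higher and Vegfa was lower in the injured group in all 17 alternatives. None of the 3 genes was called in any of them, while the share of all genes called ranged from 0.0135% (edgeR without injured replicate 3) to 6.82% (DESeq2). The adjusted p ranged from 0.081 to 0.48 for Hif1a, from 0.24 to 0.98 for Vegfa and from 0.30 to 0.69 for Kdr over the edgeR, DESeq2 and limma-voom fits. Hif1a had an unadjusted p under 0.05 in 4 of the 17, namely both limma-voom fits, scaling by library size alone and the fit without control replicate 1. Vegfa and Kdr had one in 0 of 17.

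**Figure D4:**
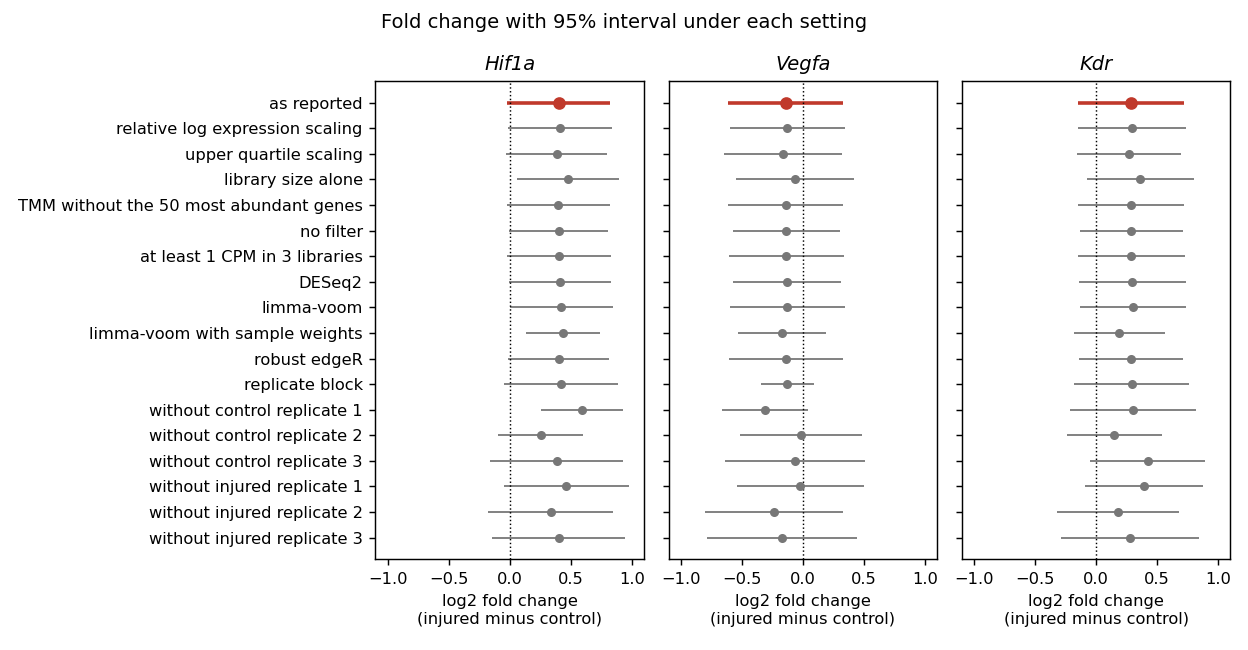
Log2 fold change (injured minus control) of Hif1a, Vegfa and Kdr with its 95% interval in the fit as reported (red) and in 17 alternatives (gray). The points for Hif1a run from 0.25 to 0.59, those for Vegfa from -0.31 to -0.02 and those for Kdr from 0.15 to 0.43, with the widest departures in fits that leave out 1 animal.

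Other members of the hypoxia and vessel pathways, such as the VEGF receptor Flt1, the HIF hydroxylases, endothelial markers and the glycolytic HIF targets, were not analysed here. The count table lists Ensembl identifiers without symbols, and no identifier could be matched to the reference gene table used here. The symbols of the 3 genes described were given with their identifiers and could not be checked against a table. For the same reason the tissue could not be checked against markers of esophageal epithelium, muscle, endothelium or leukocytes, and the part of cell makeup in the values above was not tested.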

How the data were processed

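Polyadenylated RNA of 6 rat esophagi (3 control, 3 injured) was sequenced as paired-end reads. The authors deposited raw whole-number counts per gene, 1 column per library, with no column of another sample. HTSeq 0.6.1, HISAT2 2.2.1, DESeq2 1.50.2, bcl2fastq 2.20.0.422, fastp 0.24.1 and the build Rnor_6.0 are listed per the submitters' processing notes, with no roles. Annotation release, strand setting and the handling of multi-mapping reads are not stated there, and reads shared with overlapping antisense genes cannot be traced.

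Genes were filtered with filterByExpr (minimum count 10, minimum total 15) in edgeR 4.0.16 under R 4.3.3, which kept 14481 genes. Libraries were scaled by TMM, and groups were compared by the quasi-likelihood F test on all kept genes, with Benjamini-Hochberg adjustment and a threshold of 0.05. Standard errors (SE) were taken as the size of the log2 fold change over the square root of F. The fit was checked on simulated data. DESeq2 1.42.0 and limma-voom 3.58.1 were alternatives, with other scalings, filters, the replicate number as a block and each library left out. Ratios used log2 CPM with a prior count of 2.

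The named genes are the 3 members, taken by identifier, and the 1 gene most correlated with each. Members, lists and tests were chosen with earlier results of these data known, and the correlations between members were added after the values were seen. Same-numbered control and injured libraries come from different animals. Their deviations from the group means correlated across genes at 0.37, 0.37 and 0.10 (0.104 to 3 decimals). Each is over 0.1, the limit set here for also fitting the replicate number as a block. Differently numbered libraries were not compared, so these values do not show that the animals were paired. The labels call the samples biological replicates of independent animals.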

Additional observations from a re-analysis of the deposited data

How the results depend on the processing

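With the replicate number as a block, edgeR gave log2 fold changes of 0.42 for Hif1a, -0.13 for Vegfa (standard error 0.086) and 0.29 for Kdr (adjusted p = 0.22, 0.39 and 0.36), so the block changed no call on these genes. Exact sign-flip permutation over the 3 pairs gave p = 0.25 for the Kdr to Vegfa ratio and 0.50 for each of the other 2. All 51 alternative fold changes of the 3 genes kept their direction and stayed uncalled. Leaving out 1 library gave 0.25 to 0.59 for Hif1a, -0.31 to -0.02 for Vegfa and 0.15 to 0.43 for Kdr. The difference in the Kdr to Hif1a ratio ranged from -0.28 to 0.0031 when 1 library was left out, with a change of sign without control replicate 3. The correlation of Kdr and Vegfa changed sign, from -0.03 to 0.070, when libraries were scaled by size alone. The correlations between members were added after the values were seen.

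Over the whole table, edgeR called 103 genes higher and 93 lower. DESeq2 called 756 and 641, and the replicate block 287 and 259. Limma-voom called 55 higher and 69 lower, and with sample weights 344 higher and 494 lower. Leaving out 1 library gave 2 to 134 called higher and 0 to 200 called lower. The fit that called none lower (edgeR, without injured replicate 3) had 1945 genes at an unadjusted p under 0.05, of which 946 were higher. The cause of these shifts was not tested. With 3 animals per group, missing the threshold does not show that a transcript stayed the same. The list comparisons were not run for want of symbols.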
